A study of Mus musculus with 12 samples.

Results

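Mitosis is the stage of the cell cycle in which duplicated chromosomes are condensed, attached to a spindle of microtubules and drawn apart into 2 daughter cells. Its genes are transcribed late in the cycle, so that their RNAs are high in dividing cells and low in resting ones, and most cells of the adult lung rest. The group described here holds 54 genes of this programme in 9 roles, from the cyclins that start mitosis to the condensin proteins that compact the chromosomes. They were chosen by name, with earlier results of these data known. Of these genes 53, with 117 probe sets among the 45101 of the array, were measured in whole lung. The cyclin gene Ccnb1 is not analysed here. Each gene is represented by the probe set with the highest mean over the 12 arrays, which uses no group.

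The lungs came from male A/J mice, an inbred strain prone to airway hyperreactivity, of 8 to 10 weeks by the labels. The 4 groups of 3 arrays crossed 2 exposures: PBS/PBS received saline alone; OVA/PBS received ovalbumin, the egg white protein used to raise an asthma-like allergy, at 0.4 mg/kg into the peritoneum on day 0 and 30 mg/kg into the trachea on day 14; PBS/PM aspirated 50 µl of urban particulate matter at 10 mg/ml; and OVA/PM received both. Saline replaced each missing exposure, PM followed the tracheal ovalbumin by 3 days, and lungs were taken on day 4 after PM. The methods give RNA from the lungs of 3 animals in each group, so p-values measure the spread between these few lungs. As to which single-exposure group had more changed genes, the written account of the study runs the other way round from these labels. Another part of that account concerns cells in fluid washed from the airways, a different measure from RNA of whole lung. It runs as labelled for some cells and not for others, and the files do not settle the matter. Every direction given here therefore rests on the label, and OVA/PBS and PBS/PM mean the arrays labelled so.

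Values are GCRMA levels, the logarithm to base 2 of a probe set's normalized intensity, so that a difference of 1 is a 2-fold difference. For a test, each array of 1 or both compared groups had to reach 4.93, the median of all values (the level named here), and a gene was called where limma's p, adjusted by the Benjamini-Hochberg method over all probe sets tested, was under 0.05. In whole lung, more cells of a dividing type and more RNA per cell cannot be told apart. Array medians of all probe sets lay between 4.84 and 5.03, no 2 of the 12 arrays held identical values, and the lung markers for alveolar type 2, club and alveolar type 1 cells were high on every array (the log2 of each type's summed linear intensities, called its marker sum here, lay between 15.25 and 16.68). Of the 53 genes, 7 are represented by probe sets whose name ends in _x_at and 4 by ones ending in _s_at, endings that mark probes able to bind more than 1 transcript.

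Mitotic genes are known, mostly from human and mouse cell lines, to share 2 short promoter elements: the cell cycle genes homology region (CHR), which the DREAM complex binds, and the CCAAT box, which NF-Y binds. RefSeq windows of 300 bases, 250 before and 50 after the gene start in build GRCm38.p6, were found for 45 of the 53 genes, and both elements were searched on both strands, TTTGAA or TTCAAA for the CHR and CCAAT or ATTGG for the CCAAT box. The CHR letters occurred in 31 of the 45 windows (68.9%) and in 18.1% of the 27025 windows of all genes. The CCAAT letters occurred in 33 windows (73.3%) against 37.9%. Both were found in 27 windows (60.0%) against 7.1%, and neither in 8. The matches lay close to the start: a CHR match was centred within 50 bases of it in 28 windows (62.2%), against 5.1% of all genes. Printed here are the windows of the 4 genes with the largest log2 difference between the OVA/PBS and PBS/PBS values as deposited and of the gene with the smallest. Among these windows, CHR letters are present at both ends of that range, and CCAAT letters only at the upper end. The lower end is Kif15 alone, under the level on every array, so that its small difference is not a measured response. The windows are written 5′ to 3′ on the gene's own strand, with CHR and CCAAT matches in capitals. Each was cut around 1 listed start of its gene. The Aurka window lies wholly within the annotated span of that gene, 172356190 to 172370886, so its start is not the outermost one. The Cenpf start also lies inside the span of its gene, which ends at 189688107.
Cenpf (chr1:189688037-189688336, minus strand): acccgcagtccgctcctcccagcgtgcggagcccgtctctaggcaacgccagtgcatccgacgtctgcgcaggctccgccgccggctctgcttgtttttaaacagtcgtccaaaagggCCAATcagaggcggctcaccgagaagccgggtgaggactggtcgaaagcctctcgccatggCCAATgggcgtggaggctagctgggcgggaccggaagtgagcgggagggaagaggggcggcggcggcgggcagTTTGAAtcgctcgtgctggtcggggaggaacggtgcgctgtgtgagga
Aurka (chr2:172370521-172370820, minus strand): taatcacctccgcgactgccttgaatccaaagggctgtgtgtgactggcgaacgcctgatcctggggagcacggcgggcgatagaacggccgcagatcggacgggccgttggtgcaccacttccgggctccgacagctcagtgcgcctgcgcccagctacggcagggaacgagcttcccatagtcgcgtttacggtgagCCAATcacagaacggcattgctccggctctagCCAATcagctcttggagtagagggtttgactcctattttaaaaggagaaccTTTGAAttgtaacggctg
Cdk1 (chr10:69352863-69353162, minus strand): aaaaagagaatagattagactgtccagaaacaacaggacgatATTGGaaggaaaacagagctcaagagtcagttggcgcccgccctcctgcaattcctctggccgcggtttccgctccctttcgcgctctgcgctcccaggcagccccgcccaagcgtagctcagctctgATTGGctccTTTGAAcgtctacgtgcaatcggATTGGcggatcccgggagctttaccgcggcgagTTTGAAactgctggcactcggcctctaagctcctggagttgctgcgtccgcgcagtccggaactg
Cdca8 (chr4:124936868-124937167, minus strand): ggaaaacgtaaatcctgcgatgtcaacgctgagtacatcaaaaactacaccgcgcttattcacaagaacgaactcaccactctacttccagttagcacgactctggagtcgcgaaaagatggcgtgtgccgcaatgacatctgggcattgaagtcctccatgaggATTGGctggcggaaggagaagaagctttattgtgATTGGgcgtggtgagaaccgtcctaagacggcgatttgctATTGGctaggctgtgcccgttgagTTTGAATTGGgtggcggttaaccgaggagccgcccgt
Kif15 (chr9:122950831-122951130, plus strand): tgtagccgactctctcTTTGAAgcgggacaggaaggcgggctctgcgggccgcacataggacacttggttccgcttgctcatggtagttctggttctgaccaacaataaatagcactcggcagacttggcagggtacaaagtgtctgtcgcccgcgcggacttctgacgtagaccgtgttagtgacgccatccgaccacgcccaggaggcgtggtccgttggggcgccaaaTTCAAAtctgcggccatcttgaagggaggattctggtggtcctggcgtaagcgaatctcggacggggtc

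The Cenpf window holds 2 CCAAT matches upstream of 1 CHR match, and that of Aurka the same number of each. Cdk1 has 2 CHR and 3 CCAAT matches. In Cdca8 the single CHR match overlaps the last of 4 CCAAT matches, so that TTTGAATTGG reads as both. Kif15, whose probe set lay under the level on all 12 arrays, has 2 CHR matches and no CCAAT match. Over the 45 genes, the median log2 change between OVA/PBS and PBS/PBS was 2.42 for the 31 with CHR letters and 2.22 for the 14 without, and 2.50 for the 33 with CCAAT letters against 1.89 for the 12 without. These medians are a description with no test, and they include Kif15, Ndc80, Nuf2, Ttk, Cenph and Kif4, which entered no filtered test. A match does not show that a factor was bound.

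**Figure D1:**
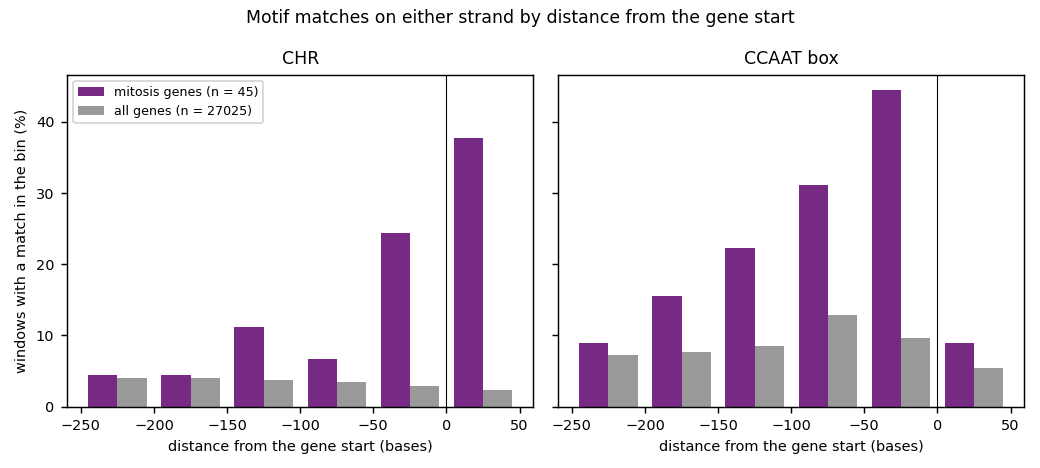
Share of promoter windows (y, percent) with a CHR (left) or CCAAT match (right) centred in each bin of 50 bases by distance from the gene start (x, bases), for 45 mitosis genes and all 27025 genes. CHR matches of the mitosis genes were most frequent in the first 50 bases after the start (37.8% of windows) and CCAAT matches in the 50 bases before it (44.4%).

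The comparison of OVA/PBS with PBS/PBS asks what allergen alone did to the programme. Mitotic genes were higher with ovalbumin. Among genes over the level on at least 1 PBS/PBS array, the folds of Birc5 (11.4), Top2a (11.4), Nusap1 (10.4) and Ccna2 (10.2) were the largest, and Cdk1, under the level on all PBS/PBS arrays, was at least 15.7-fold higher. Of 44 genes tested, 43 rose and none fell, where 8.68% of all probe sets tested rose. Since 22 of the 44 entered the test only because they were high in OVA/PBS, the other 22, at the level on all 3 PBS/PBS arrays, are given apart: 21 rose, with a median log2 change of 1.92, where 7.91% of all probe sets at the level on those arrays rose. With every probe set in the fit, 44 of 53 rose (2.76% of all). All 3 OVA/PBS arrays lay above all 3 PBS/PBS arrays in 52 of 53 genes, as they did for 14.4% of all probe sets, and the exception was Kif15. The median log2 change over the 53 genes was 2.38 on the values as deposited, and that over all probe sets 0.02. A group with no array at the level has only an upper limit, so the fold of the other group over that limit is a lower bound, written "at least", while medians over a role use the values as deposited. A bound is all there is for 21 genes, 25 have a measured change and 7 neither, and the median over the 46 with either, bounds included, was 1.94.

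**Figure D2:**
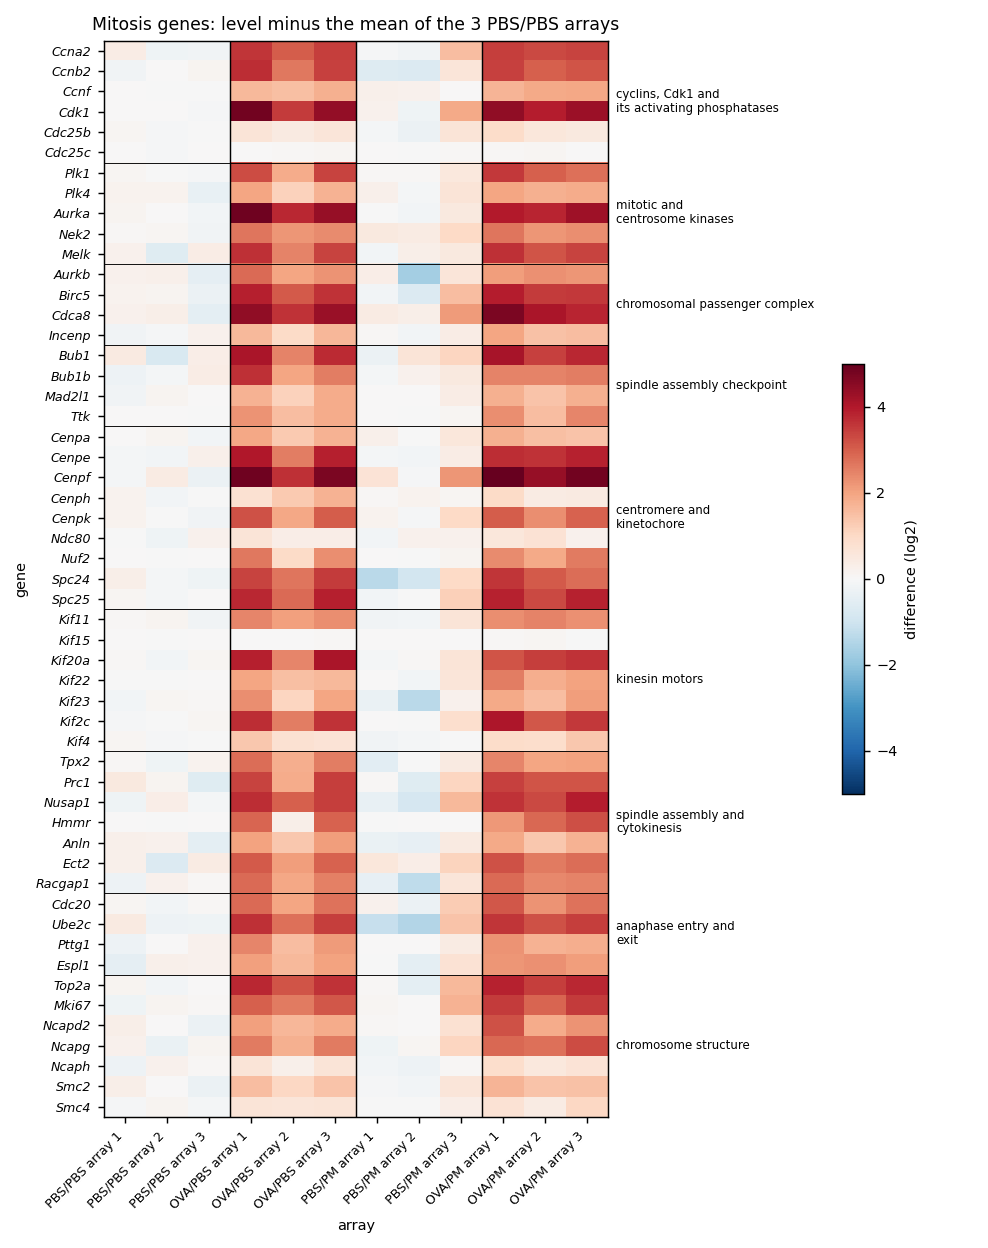
Level of each of the 53 genes (rows, by role) on each of the 12 arrays (columns), as the log2 difference from the mean of the 3 PBS/PBS arrays (colour). The OVA/PBS and OVA/PM columns are red in nearly every row (medians over genes between 1.87 and 2.81), PBS/PM arrays 1 and 2 lie near 0 (medians of -0.01 and -0.07) and PBS/PM array 3 lies at 0.60.

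Arrays were not equal in weight. On OVA/PBS array 2 the mean over the 53 genes was 6.88, against 7.70 and 7.56 on the other 2 arrays, and it was the lowest of the 3 in 50 genes, where it was the lowest for 55.6% of all probe sets. Without OVA/PBS replicate 3, 26 genes rose in place of 43, and the other counts without 1 array lay between 34 and 47. The call was lost at least once in 17 genes: Cdc25b, Plk4, Melk, Aurkb, Incenp, Bub1, Bub1b, Mad2l1, Cenpk, Kif23, Prc1, Anln, Ect2, Pttg1, Espl1, Smc2 and Smc4, at an adjusted p of up to 0.0827 (Kif23) in limma. The remaining 26 kept it in all 6 fits.

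With both exposures, all 46 genes tested rose against PBS/PBS (10.9% of all probe sets tested), and 47 of 53 with no filter (4.61%). Of the 22 genes at the level on all PBS/PBS arrays, 22 rose, with a median log2 change of 2.03 (9.67% of all probe sets at the level there). The median over the 53 genes was 2.50 as deposited and 1.91 over the 47 genes with a measured change or a bound. The arrays did not overlap in 51 genes (14.2% of all probe sets), the exceptions being Cdc25c and Kif15. Of the 46 genes, 43 kept their call whichever array was left out, and Cdc25b, Ncaph and Smc4 lost it at least once. Both exposed groups are set against the same 3 PBS/PBS arrays, so these counts are not independent of those with ovalbumin alone.

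PM alone is the third comparison with PBS/PBS, and it showed no call. None of the 22 genes tested passed limma's threshold (1 had an unadjusted p under 0.05; 0.0539% of all probe sets tested rose), and with every probe set in the fit none of 53 passed (2 had an unadjusted p under 0.05). Over those 22 genes, all at the level on the PBS/PBS arrays, the log2 changes ran from -0.47 in Kif23 to 0.66 in Ect2, with a median of 0.14. The arrays did not overlap in 1 gene, Nek2 (4.44% of all probe sets).

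**Figure D3:**
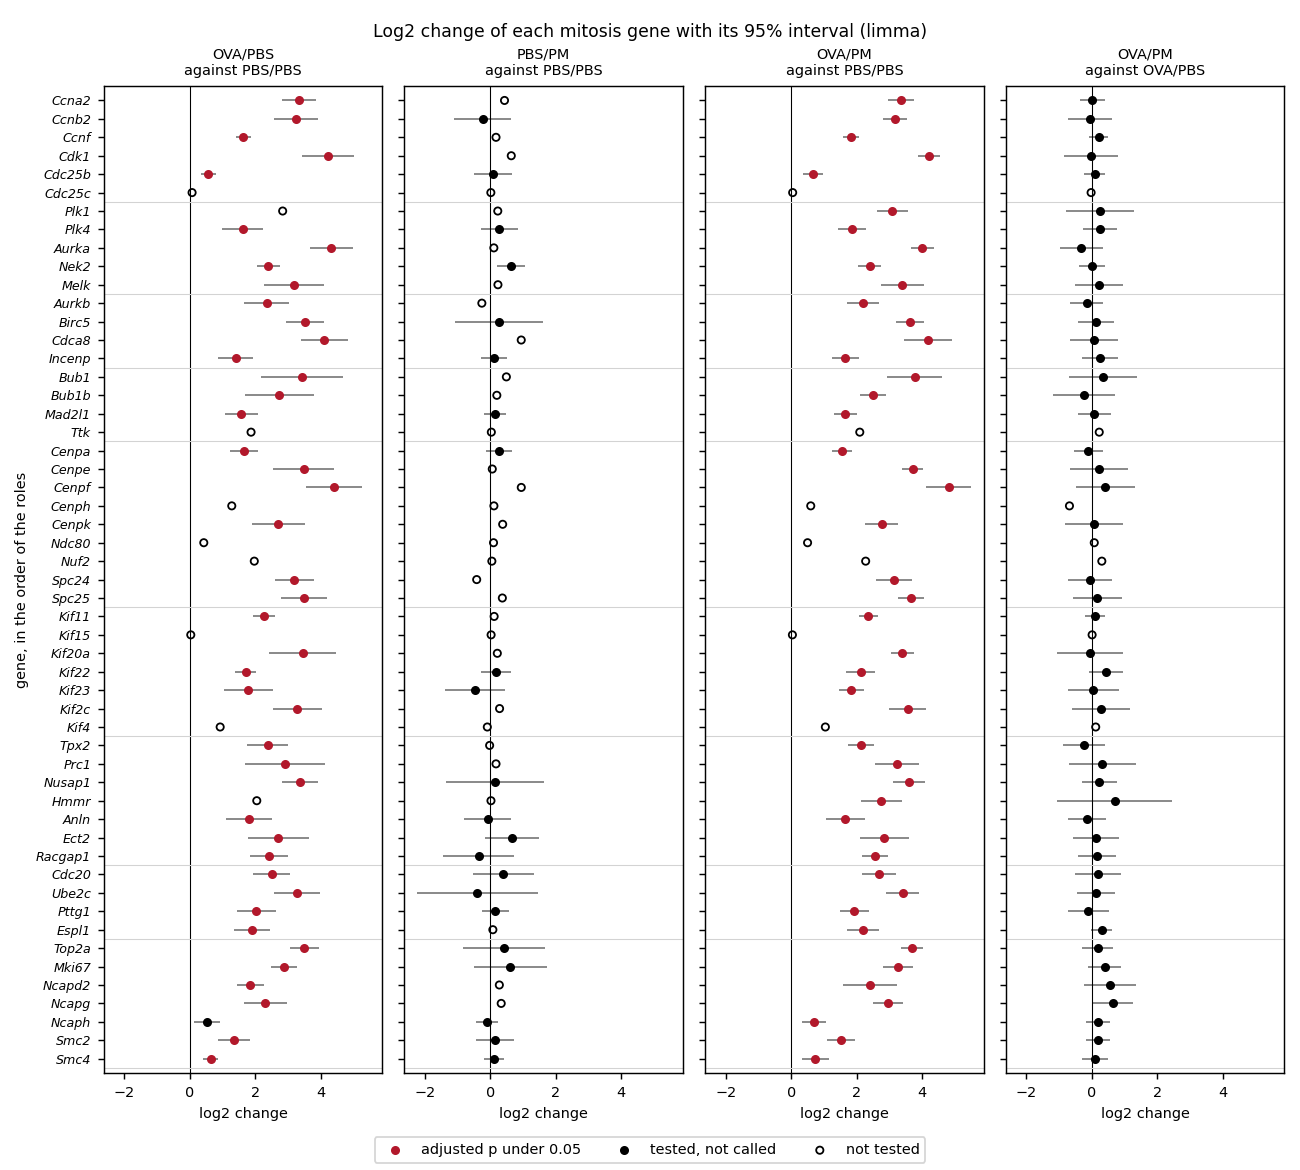
Log2 change (x) of each gene (rows, by role) in 4 comparisons, with limma's 95% interval as a grey line where the gene was tested. Red points passed the threshold, black points were tested and did not pass, and open points were not tested. In OVA/PBS and OVA/PM against PBS/PBS, 43 and 46 points are red, and none is red for PM alone or for OVA/PM set against OVA/PBS.

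The cyclins and Cdk1 drive entry into mitosis, with Cdc25 phosphatases removing the phosphates that hold Cdk1 in check. Of 6 genes measured, 5 rose with ovalbumin and the same number rose with both exposures, with medians of 2.44 and 2.51. For this role and those below, 8.68% of all probe sets tested rose with ovalbumin and 10.9% with both exposures. Across the roles, 22 genes entered the test only through OVA/PBS and 24 only through OVA/PM, and the role counts include them. Among the cyclin group, only Ccnb2 and Cdc25b were at the level on all 3 PBS/PBS arrays. Ccnb2 (1450920_at, chromosome 9) measured 5.52, 5.75 and 5.86 in PBS/PBS, 9.40, 8.35 and 9.11 in OVA/PBS, 5.05, 5.04 and 6.33 in PBS/PM and 9.14, 8.70 and 8.85 in OVA/PM. Ccnb2, a B-type cyclin that partners Cdk1, was thus higher on every array of the 2 ovalbumin groups than on any other, with no overlap. Ccnb2 rose by 3.24 on the log2 scale with ovalbumin alone (SE 0.275, 95% interval 2.57 to 3.91, adjusted p = 0.00589 in limma). Ccnb2 rose by 3.18 on the log2 scale with both exposures (SE 0.150, 95% interval 2.82 to 3.54, adjusted p = 0.000181 in limma).

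Cdk1 (1448314_at, chromosome 10) measured 4.68, 4.71 and 4.63 in PBS/PBS, 9.50, 8.16 and 9.05 in OVA/PBS, 4.88, 4.47 and 6.57 in PBS/PM and 9.09, 8.59 and 8.95 in OVA/PM. The kinase at the centre of mitotic entry was therefore under the level of 4.93 on all PBS/PBS arrays, and PBS/PM array 3 stood between the low and the high arrays. Cdk1 rose by 4.23 on the log2 scale with ovalbumin alone (SE 0.326, 95% interval 3.44 to 5.03, adjusted p = 0.00508 in limma). It was at least 15.7-fold higher, and at least 15.4-fold higher with both exposures.

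Cdc25b (1421963_a_at, chromosome 2) measured 7.51, 7.35 and 7.38 in PBS/PBS, 8.06, 7.86 and 8.03 in OVA/PBS, 7.31, 7.11 and 8.05 in PBS/PM and 8.32, 7.99 and 7.92 in OVA/PM. Cdc25b is the phosphatase that acts first at the centrosome. The 2 ovalbumin groups lay just above PBS/PBS with no overlap, but PBS/PM array 3 reached their range. Cdc25b rose by 0.57 on the log2 scale with ovalbumin alone (SE 0.0930, 95% interval 0.34 to 0.80, adjusted p = 0.0177 in limma). Cdc25c, its relative, lay between 2.60 and 2.74 on every array and was tested in no comparison. Of the remaining cyclins, Ccna2 had a log2 change of 3.35 with ovalbumin, and Ccnf was at least 1.20-fold higher.

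The mitotic kinases Plk1 and Aurka mature and separate the centrosomes, Plk4 starts centriole duplication, Nek2 loosens the link between centrosomes, and Melk is expressed in dividing cells. All 5 rose with both exposures (median 3.10), and 4 of 4 tested did with ovalbumin alone. Only Plk4 and Nek2 were at the level on PBS/PBS arrays. Aurka (1424511_at, chromosome 2) measured 2.55, 2.44 and 2.27 in PBS/PBS, 7.27, 6.19 and 6.79 in OVA/PBS, 2.41, 2.27 and 2.90 in PBS/PM and 6.39, 6.24 and 6.68 in OVA/PM. Aurka sat far below the level in both groups without ovalbumin and above it in both groups with it, and none of these arrays overlapped. Aurka rose by 4.33 on the log2 scale with ovalbumin alone (SE 0.269, 95% interval 3.67 to 4.99, adjusted p = 0.00351 in limma). Aurka rose by 4.01 on the log2 scale with both exposures (SE 0.142, 95% interval 3.67 to 4.36, adjusted p = 6.68e-05 in limma). It was at least 3.54-fold higher with ovalbumin alone and at least 2.84-fold higher with both exposures.

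Nek2 (1437580_s_at, chromosome 1) measured 6.74, 6.80 and 6.52 in PBS/PBS, 9.35, 8.88 and 9.03 in OVA/PBS, 7.19, 7.09 and 7.68 in PBS/PM and 9.35, 8.90 and 9.03 in OVA/PM. Nek2 was the 1 gene whose PBS/PM arrays all lay above the PBS/PBS arrays. Nek2 had a log2 change of 0.64 with PM alone and did not pass (SE 0.175, 95% interval 0.21 to 1.06, adjusted p = 0.443 in limma). Nek2 rose by 2.40 on the log2 scale with ovalbumin alone (SE 0.146, 95% interval 2.05 to 2.76, adjusted p = 0.00351 in limma).

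Plk4 (1419838_s_at, chromosome 3) measured 7.88, 7.89 and 7.34 in PBS/PBS, 9.68, 8.85 and 9.45 in OVA/PBS, 7.97, 7.61 and 8.33 in PBS/PM and 9.70, 9.47 and 9.54 in OVA/PM. The ovalbumin groups stood above the other groups with no overlap, and OVA/PBS array 2 came nearest to PBS/PM array 3. Plk4 rose by 1.62 on the log2 scale with ovalbumin alone (SE 0.258, 95% interval 0.99 to 2.25, adjusted p = 0.0169 in limma). Plk1 was not tested with ovalbumin alone, because OVA/PBS array 2 measured 4.90, under the level, while arrays 1 and 3 measured 6.31 and 6.41 and PBS/PBS lay between 2.99 and 3.12. With both exposures Plk1 was called and at least 2.30-fold higher.

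The chromosomal passenger complex corrects faulty attachments to the spindle and sets the place of division. It consists of the kinase Aurkb, the scaffold Incenp, and Birc5 (survivin) and Cdca8 (borealin), which target it to chromosomes. All 4 rose in both comparisons, with medians of 2.93 and 2.92. Aurkb and Cdca8 were under the level on all PBS/PBS arrays, so these medians rest in part on values under it. Birc5 (1424278_a_at, chromosome 11) measured 5.67, 5.64 and 5.21 in PBS/PBS, 9.39, 8.56 and 9.10 in OVA/PBS, 5.39, 4.84 and 7.06 in PBS/PM and 9.42, 9.0 and 9.04 in OVA/PM. The survivin gene was higher on all ovalbumin arrays than on any other, and PBS/PM array 3 came nearest to them. Birc5 rose by 3.52 on the log2 scale with ovalbumin alone (SE 0.239, 95% interval 2.93 to 4.10, adjusted p = 0.00445 in limma). Birc5 had a log2 change of 0.26 with PM alone and did not pass (SE 0.552, 95% interval -1.08 to 1.60, adjusted p = 0.921 in limma).

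Cdca8 (1436847_s_at, chromosome 4) measured 4.31, 4.38 and 3.58 in PBS/PBS, 8.51, 7.69 and 8.41 in OVA/PBS, 4.51, 4.37 and 6.20 in PBS/PM and 8.81, 8.15 and 7.89 in OVA/PM. Borealin was under the level on all PBS/PBS arrays and on 2 of the 3 PBS/PM arrays. Cdca8 rose by 4.12 on the log2 scale with ovalbumin alone (SE 0.300, 95% interval 3.39 to 4.85, adjusted p = 0.00470 in limma). It was at least 9.68-fold higher.

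Incenp (1439436_x_at, chromosome 19) measured 8.06, 8.20 and 8.47 in PBS/PBS, 9.88, 9.20 and 9.89 in OVA/PBS, 8.32, 8.12 and 8.63 in PBS/PM and 10.21, 9.72 and 9.79 in OVA/PM. The scaffold gene was over the level on every array, with no overlap between OVA/PBS and PBS/PBS. Incenp rose by 1.41 on the log2 scale with ovalbumin alone (SE 0.219, 95% interval 0.88 to 1.94, adjusted p = 0.0163 in limma). Aurkb was at least 4.19-fold higher with ovalbumin.

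The spindle assembly checkpoint holds a cell in metaphase until every chromosome is attached. The kinases Bub1 and Ttk and the related Bub1b act at kinetochores, and Mad2l1 is the protein that restrains Cdc20. Of 4 genes, 3 were tested and rose in each ovalbumin comparison. Only Mad2l1 was at the level on PBS/PBS arrays, and Bub1 and Bub1b entered through the ovalbumin groups. Mad2l1 (1422460_at, chromosome 6) measured 7.56, 7.91 and 7.79 in PBS/PBS, 9.49, 8.89 and 9.61 in OVA/PBS, 7.79, 7.79 and 8.12 in PBS/PM and 9.54, 9.18 and 9.52 in OVA/PM. Mad2l1 was over the level on every array, and all ovalbumin arrays lay above all others. Mad2l1 rose by 1.58 on the log2 scale with ovalbumin alone (SE 0.209, 95% interval 1.07 to 2.08, adjusted p = 0.0126 in limma).

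Bub1 (1424046_at, chromosome 2) measured 4.22, 3.02 and 4.10 in PBS/PBS, 7.88, 6.24 and 7.52 in OVA/PBS, 3.50, 4.43 and 4.86 in PBS/PM and 7.90, 7.20 and 7.56 in OVA/PM. Bub1 was under the level on all arrays without ovalbumin and above it on all arrays with it. Bub1 rose by 3.43 on the log2 scale with ovalbumin alone (SE 0.510, 95% interval 2.19 to 4.68, adjusted p = 0.0151 in limma). It was at least 4.86-fold higher. Ttk reached the level on no array.

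Centromere and kinetochore genes build the site where microtubules grip the chromosome. Cenpa is the histone variant that marks it, Cenpe a motor and Cenpf a large protein of the outer layer, and Ndc80, Nuf2, Spc24 and Spc25 form the complex that holds the microtubule. Of 9 genes, 6 were tested and rose in each ovalbumin comparison. Among these 6, only Cenpa was at the level on PBS/PBS arrays. Cenpe, Cenpf, Cenpk, Spc24 and Spc25 entered the test only through the ovalbumin groups, where they were high. Cenpf (1427161_at, chromosome 1) measured 2.58, 3.08 and 2.37 in PBS/PBS, 7.53, 6.35 and 7.37 in OVA/PBS, 3.36, 2.61 and 4.90 in PBS/PM and 7.98, 7.02 and 7.48 in OVA/PM. Cenpf was under the level on all arrays without ovalbumin, with PBS/PM array 3 the highest of them. Cenpf rose by 4.40 on the log2 scale with ovalbumin alone (SE 0.351, 95% interval 3.55 to 5.26, adjusted p = 0.00544 in limma). Cenpf rose by 4.82 on the log2 scale with both exposures (SE 0.286, 95% interval 4.13 to 5.51, adjusted p = 0.00039 in limma). Against the level it was at least 4.44-fold higher with ovalbumin alone and at least 5.92-fold higher with both exposures.

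Cenpa (1450842_a_at, chromosome 5) measured 7.15, 7.25 and 6.98 in PBS/PBS, 9.06, 8.43 and 8.85 in OVA/PBS, 7.38, 7.11 and 7.68 in PBS/PM and 8.89, 8.61 and 8.53 in OVA/PM. The centromeric histone gene was over the level on every array, and the ovalbumin arrays lay above all others. Cenpa rose by 1.66 on the log2 scale with ovalbumin alone (SE 0.176, 95% interval 1.23 to 2.08, adjusted p = 0.00836 in limma). Cenpa had a log2 change of 0.26 with PM alone and did not pass (SE 0.161, 95% interval -0.13 to 0.65, adjusted p = 0.708 in limma).

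Spc24 (1431087_at, chromosome 9) measured 4.63, 4.25 and 4.14 in PBS/PBS, 7.71, 7.04 and 7.85 in OVA/PBS, 3.0, 3.41 and 5.35 in PBS/PM and 7.92, 7.41 and 7.12 in OVA/PM. Spc24 split the PBS/PM arrays widely, with arrays 1 and 2 under the PBS/PBS arrays and array 3 above them. Spc24 rose by 3.19 on the log2 scale with ovalbumin alone (SE 0.245, 95% interval 2.59 to 3.79, adjusted p = 0.00508 in limma). It was at least 6.06-fold higher. Of its partners, Spc25 was at least 5.23-fold higher, while Ndc80 and Nuf2 did not reach the test: Nuf2 lay between 3.86 and 5.52 in OVA/PBS and between 2.88 and 2.91 in PBS/PBS, and Ndc80 stayed between 2.28 and 3.22 on every array.

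Kinesins are motors that push, cross-link or depolymerize spindle microtubules. Of 7 genes, 5 were tested and rose in each ovalbumin comparison, with medians over the 7 of 1.79 and 2.13. Only Kif22 and Kif23 were at the level on all 3 PBS/PBS arrays. Kif22 (1437716_x_at, chromosome 7) measured 8.50, 8.52 and 8.54 in PBS/PBS, 10.49, 10.03 and 10.15 in OVA/PBS, 8.55, 8.40 and 9.12 in PBS/PM and 11.06, 10.34 and 10.54 in OVA/PM. Kif22, a chromosome-binding kinesin, was tight in PBS/PBS and higher on every ovalbumin array than on any other. Kif22 rose by 1.70 on the log2 scale with ovalbumin alone (SE 0.131, 95% interval 1.39 to 2.02, adjusted p = 0.00508 in limma). Kif22 rose by 2.13 on the log2 scale with both exposures (SE 0.188, 95% interval 1.67 to 2.58, adjusted p = 0.00137 in limma).

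Kif23 (1455990_at, chromosome 9) measured 6.48, 6.73 and 6.69 in PBS/PBS, 8.95, 7.71 and 8.61 in OVA/PBS, 6.31, 5.31 and 6.86 in PBS/PM and 8.52, 8.19 and 8.72 in OVA/PM. Kif23, which bundles the microtubules of the central spindle, had PBS/PM values that straddled PBS/PBS. Kif23 rose by 1.79 on the log2 scale with ovalbumin alone (SE 0.312, 95% interval 1.03 to 2.55, adjusted p = 0.0200 in limma). Kif23 had a log2 change of -0.47 with PM alone and did not pass (SE 0.376, 95% interval -1.39 to 0.44, adjusted p = 0.772 in limma). With ovalbumin Kif20a was at least 2.31-fold and Kif2c at least 3.61-fold higher, and Kif11 had a log2 change of 2.26. Kif15 lay between 2.18 and 2.30 on all 12 arrays, far under the level.

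Spindle assembly and cytokinesis were represented by 7 genes: Tpx2 and Nusap1 stabilize spindle microtubules, Prc1 bundles them at the midzone, Hmmr binds the spindle poles, and Anln, Ect2 and Racgap1 set up the contractile ring. Of the 7, 6 were tested and rose with ovalbumin, and 7 rose with both exposures. Tpx2, Prc1 and Hmmr were not at the level on all 3 PBS/PBS arrays. Ect2 (1419513_a_at, chromosome 3) measured 6.04, 5.10 and 6.21 in PBS/PBS, 8.86, 7.86 and 8.75 in OVA/PBS, 6.34, 6.09 and 6.89 in PBS/PM and 8.95, 8.37 and 8.58 in OVA/PM. Ect2, the exchange factor that switches on RhoA at the ring, was low on PBS/PBS array 2, and the ovalbumin arrays cleared all others. Ect2 rose by 2.71 on the log2 scale with ovalbumin alone (SE 0.384, 95% interval 1.77 to 3.64, adjusted p = 0.0142 in limma). Ect2 had a log2 change of 0.66 with PM alone and did not pass (SE 0.340, 95% interval -0.17 to 1.48, adjusted p = 0.666 in limma).

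Anln (1433543_at, chromosome 9) measured 6.91, 6.89 and 6.16 in PBS/PBS, 8.68, 7.99 and 8.73 in OVA/PBS, 6.34, 6.25 and 7.11 in PBS/PM and 8.53, 8.01 and 8.41 in OVA/PM. Anillin, a scaffold of the ring, showed the same separation, with PBS/PM array 3 the highest of the arrays without ovalbumin. Anln rose by 1.82 on the log2 scale with ovalbumin alone (SE 0.286, 95% interval 1.12 to 2.51, adjusted p = 0.0166 in limma). Nusap1 had a log2 change of 3.38, and Hmmr was not tested with ovalbumin alone because OVA/PBS array 2 measured 3.83 beside 6.42 and 6.46 on arrays 1 and 3.

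Anaphase begins when Cdc20 turns on the anaphase-promoting complex, which works with the ubiquitin carrier Ube2c to destroy securin (Pttg1) and so frees separase (Espl1). All 4 rose in both ovalbumin comparisons, with medians of 2.27 and 2.44. Espl1 was under the level on all PBS/PBS arrays. Cdc20 (1439377_x_at, chromosome 4) measured 8.12, 7.88 and 8.10 in PBS/PBS, 10.86, 10.02 and 10.74 in OVA/PBS, 8.24, 7.73 and 9.31 in PBS/PM and 11.12, 10.29 and 10.76 in OVA/PM. Cdc20 overlapped in no comparison with PBS/PBS that involved ovalbumin, and PBS/PM array 3 stood more than 1 above its 2 companions. Cdc20 rose by 2.50 on the log2 scale with ovalbumin alone (SE 0.230, 95% interval 1.94 to 3.07, adjusted p = 0.00691 in limma). Cdc20 had a log2 change of 0.39 with PM alone and did not pass (SE 0.386, 95% interval -0.54 to 1.33, adjusted p = 0.811 in limma).

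Pttg1 (1438390_s_at, chromosome 11) measured 9.03, 9.31 and 9.50 in PBS/PBS, 11.71, 10.81 and 11.41 in OVA/PBS, 9.28, 9.29 and 9.70 in PBS/PM and 11.54, 11.01 and 11.08 in OVA/PM. Securin was over the level on all arrays, and all ovalbumin arrays lay above all others. Pttg1 rose by 2.03 on the log2 scale with ovalbumin alone (SE 0.248, 95% interval 1.43 to 2.64, adjusted p = 0.0108 in limma). Ube2c rose by 3.28 on the log2 scale, and Espl1 was at least 1.24-fold higher.

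Chromosome structure is served by the condensin subunits Smc2, Smc4, Ncapd2, Ncapg and Ncaph, the topoisomerase Top2a that untangles sister DNA, and Mki67, the Ki-67 antigen that coats mitotic chromosomes. Of 7 genes, 6 rose with ovalbumin and 7 with both exposures. Ncapd2 and Ncapg were under the level on all PBS/PBS arrays. Smc4 (1427275_at, chromosome 3) measured 10.51, 10.70 and 10.47 in PBS/PBS, 11.22, 11.18 and 11.19 in OVA/PBS, 10.55, 10.55 and 10.89 in PBS/PM and 11.30, 10.99 and 11.61 in OVA/PM. Smc4 was over the level throughout, and its OVA/PBS arrays lay close together just above all arrays without ovalbumin. Smc4 rose by 0.63 on the log2 scale with ovalbumin alone (SE 0.0890, 95% interval 0.42 to 0.85, adjusted p = 0.0138 in limma). Smc4 rose by 0.74 on the log2 scale with both exposures (SE 0.172, 95% interval 0.32 to 1.15, adjusted p = 0.0291 in limma).

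Smc2 (1448635_at, chromosome 4) measured 8.41, 8.10 and 7.79 in PBS/PBS, 9.64, 9.14 and 9.54 in OVA/PBS, 8.05, 7.97 and 8.70 in PBS/PM and 9.78, 9.53 and 9.57 in OVA/PM. Its partner Smc2 was again separated from PBS/PBS without overlap. Smc2 rose by 1.34 on the log2 scale with ovalbumin alone (SE 0.201, 95% interval 0.85 to 1.83, adjusted p = 0.0152 in limma). The division markers Top2a and Mki67 had log2 changes of 3.51 and 2.89 (adjusted p = 0.00228 and 0.00351 in limma). Ncaph, the 1 gene tested with ovalbumin and not called, had a log2 change of 0.52 (SE 0.165, adjusted p = 0.0720 in limma).

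**Figure D4:**
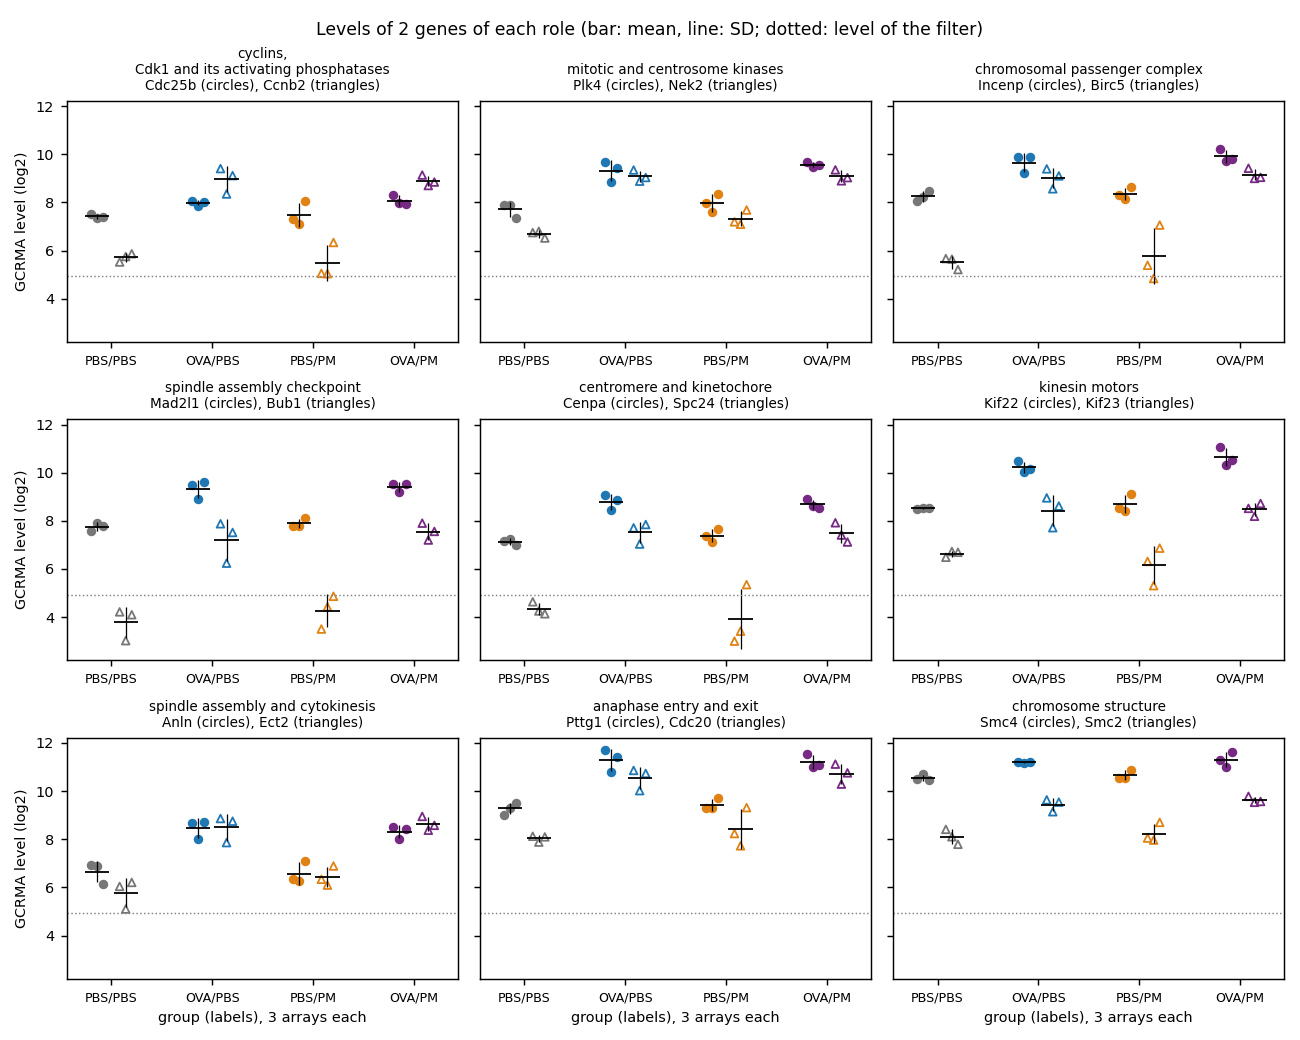
GCRMA log2 level (y) of 2 genes of each role, those with the highest mean over the 12 arrays, by group (x). Points are single arrays, bars the mean and vertical lines the SD of 3 arrays, and the dotted line the level of 4.93 used as filter. In every panel the OVA/PBS and OVA/PM means lie above the PBS/PBS and PBS/PM means.

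Setting OVA/PM beside OVA/PBS asks what PM added to allergen. None of 46 genes tested passed in limma (1, Ncapg, had an unadjusted p under 0.05; 0.125% of all probe sets tested rose), and none of 53 did with no filter, where none had an unadjusted p under 0.05. The median log2 change over the 46 was 0.15, and its sign rested on single arrays: it was -0.14 without OVA/PBS replicate 2, 0.31 without OVA/PBS replicate 1 and 0.05 without OVA/PM replicate 1. The arrays stood apart without overlap in 2 genes, Espl1 and Ncapg, both higher with PM (5.58% of all probe sets did so). For Ncapg the log2 change was 0.64 (95% interval 0.02 to 1.27) with an adjusted p of 0.559. For Cenpf the interval ran from -0.49 to 1.31 and for Aurka from -0.98 to 0.35.

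The interaction asks whether the change with both exposures differed from the sum of the changes with each. None of 46 genes passed in limma (1, Nek2, had an unadjusted p under 0.05; 0.0264% of all probe sets tested were called). The median was -0.01, but -0.30 without OVA/PBS replicate 2 and 0.24 without PBS/PM replicate 3, so that single arrays set its sign. For Cdca8 the 95% interval ran from -2.32 to 0.60, and for Nek2 the value was -0.63 with an adjusted p of 0.766.

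Set against PM alone, OVA/PM was higher in 44 of 46 genes tested and lower in none (7.13% of all probe sets rose). The median was 2.54 over the 46 tested and 2.31 over the 53 genes as deposited. The 2 not called were Cdc25b and Smc4. With no filter 39 of 53 genes were higher, as were 1251 of the 45037 probe sets fitted. Only 18 of the 53 genes were at the level on all 3 PBS/PM arrays. Most genes tested against PBS/PM thus entered through the ovalbumin group, where they were high. OVA/PBS was higher than PBS/PM in 36 of 44 genes tested (3.24% of all probe sets), and Aurka was at least 3.54-fold higher (adjusted p = 0.0113 in limma). The median was 2.37 over the 44 tested and 2.15 over the 53 genes as deposited. The count of 36 rested on the filter and on single arrays. With no filter none of 53 genes passed in limma, although 49 had an unadjusted p under 0.05 (0.00666% of all probe sets rose). Without OVA/PBS replicate 1, OVA/PBS replicate 3 or PBS/PM replicate 2 no gene passed, without PBS/PM replicate 1 there were 2 and without PBS/PM replicate 3 there were 18. The adjusted p-values of the 36 reached 0.0499 (Cdc20) in limma, and the arrays were apart without overlap in 50 of 53 genes (10% of all probe sets).

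Within PBS/PM, array 3 stood apart for this programme. The mean level over the 53 genes was 4.97, 4.83 and 5.77 on arrays 1 to 3, against 5.08, 5.01 and 4.99 in PBS/PBS and 7.70, 6.88 and 7.56 in OVA/PBS. Array 3 was the highest of its group in 50 of 53 genes, where it was the highest for 58% of all probe sets. It exceeded the mean of its 2 companions by more than 0.5 in 35 genes (2.41% of all probe sets did so) and by more than 1 in 18 (0.495%). Ube2c (2.75 above its companions), Nusap1 (2.22), Spc24 (2.14), Birc5 (1.95) and Cenpf (1.92) had the largest such differences on the values as deposited. Their size rests in part on values under the level. Ube2c, Nusap1, Spc24 and Cenpf lay under it on arrays 1 and 2, and Birc5 on array 2. Cenpf was under it on array 3 too. By role, the median excess was 1.53 in the chromosomal passenger complex and 1.16 among anaphase genes, against 0.39 in the checkpoint and 0.54 among kinases. Bub1, Bub1b and Ttk in the checkpoint and Plk1, Aurka and Melk among the kinases lay under the level on all PBS/PM arrays. Espl1 did so among the anaphase genes. The lower medians thus rest largely on values under the level and do not rank the roles. Ube2c measured 4.52, 4.19 and 7.11 on the 3 PBS/PM arrays, and 5.43 to 6.12 in PBS/PBS. Without PBS/PM replicate 3 the median log2 change of the 22 genes tested against PBS/PBS was -0.07, and no gene passed in either case.

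On that array the marker sum of 4 neutrophil markers was 10.56, against 12.85 and 11.62 on its companions, and that of 5 heart and skeletal muscle markers was 14.76 against 15.38 and 15.33. The sum of 5 macrophage markers was 11.57 against 11.08 and 10.50, that of 3 plasma cell markers 14.95 against 14.31 and 14.39, and that of 5 T cell markers 9.57 against 9.83 and 9.76. The erythroid precursor sum was 8.81 against 8.31 and 7.46, with Klf1 and Rhag under the level. That of B cell markers was 11.48 against 11.97 and 11.15, and that of granulocyte precursor markers 9.20 against 8.86 and 9.28. Endothelial, alveolar type 1 and type 2, club cell and thymocyte sums were the lowest of the group on that array. The part of these cells in the array's level was not tested.

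**Figure D5:**
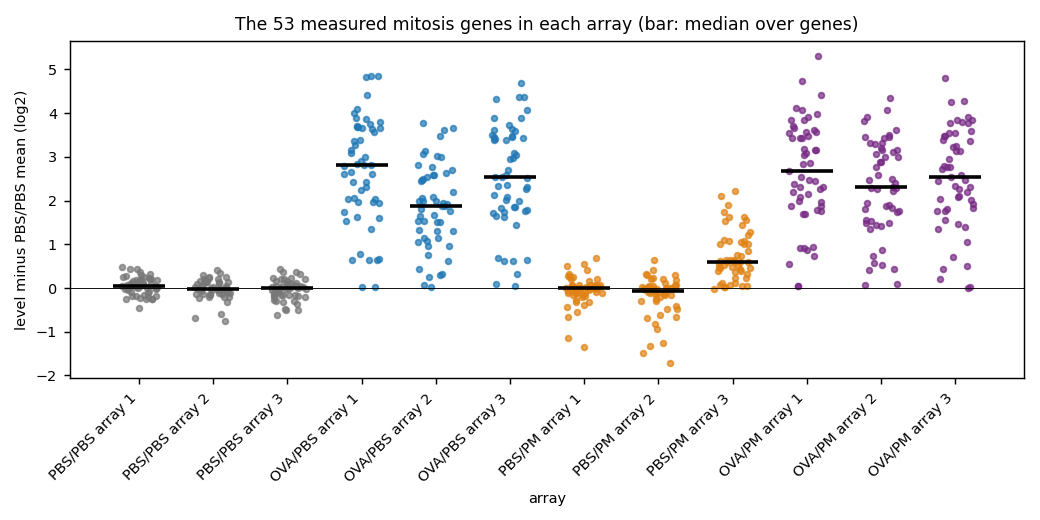
Level of each of the 53 genes (points) on each array (x) minus the PBS/PBS mean (y, log2), with the median over genes as a bar. OVA/PBS arrays have medians of 2.81, 1.87 and 2.54, PBS/PM arrays of -0.01, -0.07 and 0.60, and OVA/PM arrays of 2.67, 2.32 and 2.54.

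The genes with several probe sets allowed a second reading. Of 64 further probe sets of these genes, 15 were tested with ovalbumin alone, of which 14 rose, in 12 genes, and none fell (8.68% of all probe sets tested rose). Of the 14, 6 lay under the level on all PBS/PBS arrays, so that they entered through OVA/PBS and have only a bound. With both exposures 16 were tested, 13 rose (7 of them from under the level) and none fell (10.9%). The 3 not called were probe sets of the condensin genes Ncaph, Smc2 and Smc4. Untested probe sets did not reach the level on all 3 arrays of either group compared. The median log2 change over the 64 was 0.27 in each comparison. By probe set ending, 5 of the 6 tested _x_at probe sets rose with ovalbumin, as did 4 of 4 _s_at, 11 of 11 _a_at and 23 of 23 plain _at probe sets.

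Of 65 other genes of the same programme, 36 were tested with ovalbumin, 19 rose and none fell (median 0.87 over the 65; 8.68% of all probe sets tested rose). With both exposures 23 of 38 rose (10.9%). Cep55, which recruits the machinery that cuts the last bridge between daughter cells, measured 3.82, 5.02 and 4.03 in PBS/PBS and 9.28, 8.09 and 9.09 in OVA/PBS, a log2 change of 4.53 (SE 0.427, adjusted p = 0.00730 in limma). The cohesin subunit Smc3 was at the other end, with a log2 change of -0.13 (adjusted p = 0.357).

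DNA replication genes act in the phase of DNA synthesis. Of 34 measured, 27 were tested with ovalbumin, 21 rose and none fell (8.68% of all probe sets tested rose), with a median of 0.97 over the 34. Uhrf1, which carries DNA methylation through replication, measured 5.28, 5.97 and 4.81 in PBS/PBS and 9.17, 8.44 and 9.07 in OVA/PBS, a log2 change of 3.54 (adjusted p = 0.00741 in limma). Mcm10 lay under the level on all arrays. With PM alone none of 24 replication genes tested passed, nor did any of 26 other mitosis genes (0 and 1 had an unadjusted p under 0.05 in limma).

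Genes upstream of mitosis are set here against the same 8.68% of all probe sets that rose. Of 19 transcription regulators of the cell cycle, 13 were tested with ovalbumin and 2 rose. E2f7, a repressor that E2F factors induce, had the largest difference, 2.29, but only 1 OVA/PBS array reached the level (5.03, 3.17 and 4.87, against 2.52, 1.78 and 1.90 in PBS/PBS), so it was not tested, and the pocket protein gene Rbl2 the smallest at -0.26. Of 9 G1 cyclins and their kinases, 3 rose, among them Ccne2 by 1.36 (SE 0.297, adjusted p = 0.0316), and Cdk6 had a log2 change of -0.16. Of 12 inhibitors of the cell cycle tested, none rose and 1, the antiproliferative gene Btg2, fell by 0.64 on the log2 scale (adjusted p = 0.0323 in limma; 10.5% of all probe sets tested fell), while Btg1 had a log2 change of 0.41.

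Markers of some other cells differed between the same groups, where 8.68% of all probe sets tested rose and 10.5% fell. With ovalbumin alone no tested marker of neutrophils, plasma cells, club cells, alveolar type 1 or type 2 cells or heart and skeletal muscle was called. The marker sum of 5 T cell markers lay between 8.79 and 10.07 in PBS/PBS and between 10.66 and 11.15 in OVA/PBS, where 3 of the 5 rose. That of 5 macrophage markers lay between 10.56 and 11.15 in PBS/PBS and between 12.68 and 13.41 in OVA/PBS, where 4 of 4 tested rose, and Siglec1 was under the level everywhere. Of 4 B cell markers 1 rose, and the sums overlapped. Of 3 endothelial markers 2 fell (14.46 to 14.70 against 13.79 to 14.12). In OVA/PM 4 of 5 T cell and 4 of 4 tested macrophage markers rose as well, as did 2 of 4 B cell markers (10.9% of all probe sets tested). Of 3 plasma cell markers 1, Jchain, rose there by 2.11 on the log2 scale (adjusted p = 0.00514 in limma). The markers that fell in OVA/PM were 3 of 3 endothelial, 2 of 2 alveolar type 1, 1 of 3 alveolar type 2 and 1 of 5 muscle markers. Of all 22538 probe sets tested, 2450 fell. The muscle gene was Tnnt3 (log2 change -4.78, adjusted p = 0.0495 in limma).

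Markers of quickly dividing precursors were mostly under the level. For thymocytes, 4 of 5 markers (Dntt, Rag1, Rag2 and Ptcra) were under the level on all arrays. The fifth, Cd8b1, which mature T cells also express, measured 4.07, 5.29 and 5.81 in PBS/PBS and 6.54, 7.27 and 6.71 in OVA/PBS and rose by 1.78 on the log2 scale (adjusted p = 0.0446 in limma). The granulocyte precursor genes Mpo, Elane, Prtn3 and Ctsg were under it too, while Ltf, a granule protein gene also expressed by epithelial glands, rose by 3.07 on the log2 scale with ovalbumin (adjusted p = 0.0201 in limma). Camp measured 8.61 on PBS/PBS array 3, lay between 2.37 and 4.08 on the other PBS/PBS and OVA/PBS arrays, and was not tested. For erythroid precursors, Klf1 and Rhag were under the level everywhere. The third marker, Alas2, was tested with ovalbumin and not called (log2 change -0.34, adjusted p = 0.379 in limma). The part of T cells, macrophages and other cells in the levels of the mitotic genes was not tested.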

How the data were processed

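RNA of whole lungs was hybridised to Affymetrix mouse genome arrays. The authors deposited 1 table of log2 intensities, made with GCRMA, which corrects for background by probe GC content and normalizes between arrays; MAS5 is also named in the submitters' processing notes, and versions are not given in the sources used here. Gene symbols came from GEO's platform annotation: 34958 probe sets had 1 symbol, 932 several and 9211 none. No scan dates or batches were given.

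The members and all gene lists were chosen with earlier results of these data known. Groups were compared in pairs with limma 3.58.1 in R 4.3.3 (lmFit and eBayes, two-sided, 6 arrays a fit), and the interaction over all 12 arrays; the 64 control probe sets were left out. The level of 4.93 stood in for the authors' present calls, and limma for SAM, the test of the methods. Values in every array are given for the 2 genes with the highest mean in each role and for the 3 largest and 2 smallest log2 changes in each comparison with PBS/PBS (as ranges for Cdc25c and Kif15); other named genes were chosen after their values were seen. The fit was tested on simulated data. Alternatives were other filters, adding 16 to the linear intensities, quantile normalization of the values, a block for the replicate number, 1 fit of all 4 groups, another probe set per gene and leaving out each array. The number of arrays, 3 a group, limits the precision. Promoter windows came from RefSeq, 1 a gene, the first listed.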

Additional observations from a re-analysis of the deposited data

How the results depend on the processing

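No called log2 change of a named gene against PBS/PBS changed sign under any alternative run, while uncalled changes with PM alone did so for Cdc25b, Incenp, Birc5, Kif22, Anln, Cdc20, Smc4 and Smc2 when single arrays were left out. With the filter set at the 75th percentile of all values, fewer genes enter the fit: 11 rose in OVA/PBS and 14 in OVA/PM against PBS/PBS, 14 in OVA/PM and 11 in OVA/PBS against PBS/PM, and these were all of the genes tested. Counts without 1 array lay between 26 (without OVA/PBS replicate 3) and 47 for OVA/PBS and between 44 and 47 for OVA/PM against PBS/PBS, between 38 and 45 for OVA/PM against PBS/PM, and between 0 and 44 for OVA/PBS against PBS/PM, where 0 also stood with no filter. PM alone, OVA/PM against OVA/PBS and the interaction had 0 calls in limma throughout. The cause of these shifts was not tested.

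Replicate numbers are shared by the 4 groups, but they did not pair the arrays: of 18 same-numbered pairs, 3 had deviations correlated above 0.1 (median -0.06), and 2 of 12 arrays correlated best with their own number. With the replicate block, 19 genes rose in OVA/PBS against PBS/PBS in place of 43, and no other count moved by more than 1.5 times. No depth can be given for arrays. Cdc25c, Ttk, Cenph, Ndc80, Nuf2, Kif15 and Kif4 reached the level of 4.93 on all 3 arrays of no group and, with all arrays in place, entered no filtered test.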
